A study of Mus musculus with 4 samples.

Results

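Acyl-CoA and acetyl-CoA synthetases were followed through subcutaneous adipose tissue (SAT) of mice that lacked *Napepld* in adipose tissue and were fed a high-fat diet. The 10 genes were taken by name from a list of the long-chain (*Acsl1*, *Acsl3*, *Acsl4*, *Acsl5* and *Acsl6*), short-chain (*Acss1*, *Acss2* and *Acss3*) and medium-chain (*Acsm3* and *Acsf2*) families. The list was drawn up with earlier results of these data known, so the choice was not blind to the values. Of these, 8 had a probe set that named only that gene, out of 19938 genes measured in this way. *Acsl3* was seen only in a probe set that also names *Utp14b*, and no named probe set was found for *Acsl1*, which was therefore not analysed here. By quantitative PCR the study reported lower *Acsl1* expression in the knockout mice on the control diet. There were 4 Affymetrix MoGene 1.0 ST arrays, 1 per group. The cKO-HFD and cKO-CT groups were AP2 Cre NAPE PLD lox/lox mice on the high-fat (D12492) or the control (AIN93M) diet, and the WT-HFD and WT-CT groups were NAPE PLD lox/lox mice without Cre on the same diets. All mice were C57Bl6 and 16 weeks old, and all 4 groups carried the floxed allele. The Cre was driven by the *Fabp4* (aP2) promoter, which is active in adipocytes and is also known from macrophages. The study found no genotype difference in *Napepld* expression of peritoneal macrophages, and a decrease in the adipocyte fraction but not in the stromal vascular fraction. RNA of 4 to 5 mice, picked for RNA quality, was pooled on each array, so the spread between mice was not seen and no difference has a replicate check.

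A fatty acid must be joined to coenzyme A before a cell can store it, burn it or build it into membranes, and acyl-CoA synthetases carry out this ATP-dependent step. The families differ in the chain length they prefer and in where they sit. Long-chain enzymes lie on the endoplasmic reticulum, lipid droplets and the outer mitochondrial membrane, medium-chain enzymes in the mitochondrial matrix, and acetyl-CoA synthetases turn acetate into acetyl-CoA either in the cytosol and nucleus or in mitochondria. In fat, long-chain acyl-CoA feeds triglyceride synthesis, and in thermogenic fat it also feeds oxidation.

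The deposited values are log2 levels, and a difference of 2 levels is given as a log2 ratio. A call of higher or lower was made from a difference of 1.5-fold upwards, and "fell" and "rose" are kept for such genes. With 1 array per group these are descriptions without a test. The 95th percentile of the olfactory receptor (*Olfr*) genes, which fat is not known to use, served as the background and stood at 5.50 on cKO-HFD, 5.42 on WT-HFD, 5.28 on cKO-CT and 5.39 on WT-CT. The median level over all genes was 5.80 to 5.83 on the arrays. *Napepld* itself had a log2 level of 7.94 on cKO-HFD, 8.01 on WT-HFD, 7.78 on cKO-CT and 8.32 on WT-CT, none of these differences reaching 1.5-fold. The position of its probe set relative to the floxed part is not given in the sources used here, and the array does not check the genotype labels. The adipocyte identity of the tissue was plain, as all 11 measured adipocyte markers lay above background on every array, *Adipoq* at 12.44 to 12.70.

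On the high-fat diet, 3 of the 8 synthetases were lower in cKO mice (*Acsm3*, *Acss2* and *Acsf2*), and 5 were lower in WT mice (*Acsm3*, *Acss2*, *Acsl5*, *Acsf2* and *Acss1*), each set against the control diet. Between genotypes no synthetase was called on the high-fat diet, where *Acsm3* in cKO mice and *Acsl6* in both genotypes lay below background and so could not be resolved, and 3 were lower in cKO mice on the control diet (*Acsm3*, *Acss1* and *Acsl5*). None was called higher in any of the 4 comparisons. Of all 19938 genes, 2.17% were lower with the diet in cKO mice and 2.67% in WT mice. By genotype 2.11% were lower on the high-fat diet and 1.52% on the control diet. Between 1.04% and 3.16% of all genes were higher in these comparisons. Of the remaining genes, *Acsl4* and *Acss3* stayed within 1.5-fold in all 4 comparisons, and *Acsl6* lay below background throughout. Of the 8 genes, 7 had their highest level on the WT-CT array, where 27.4% of all genes were highest.

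**Figure D1:**
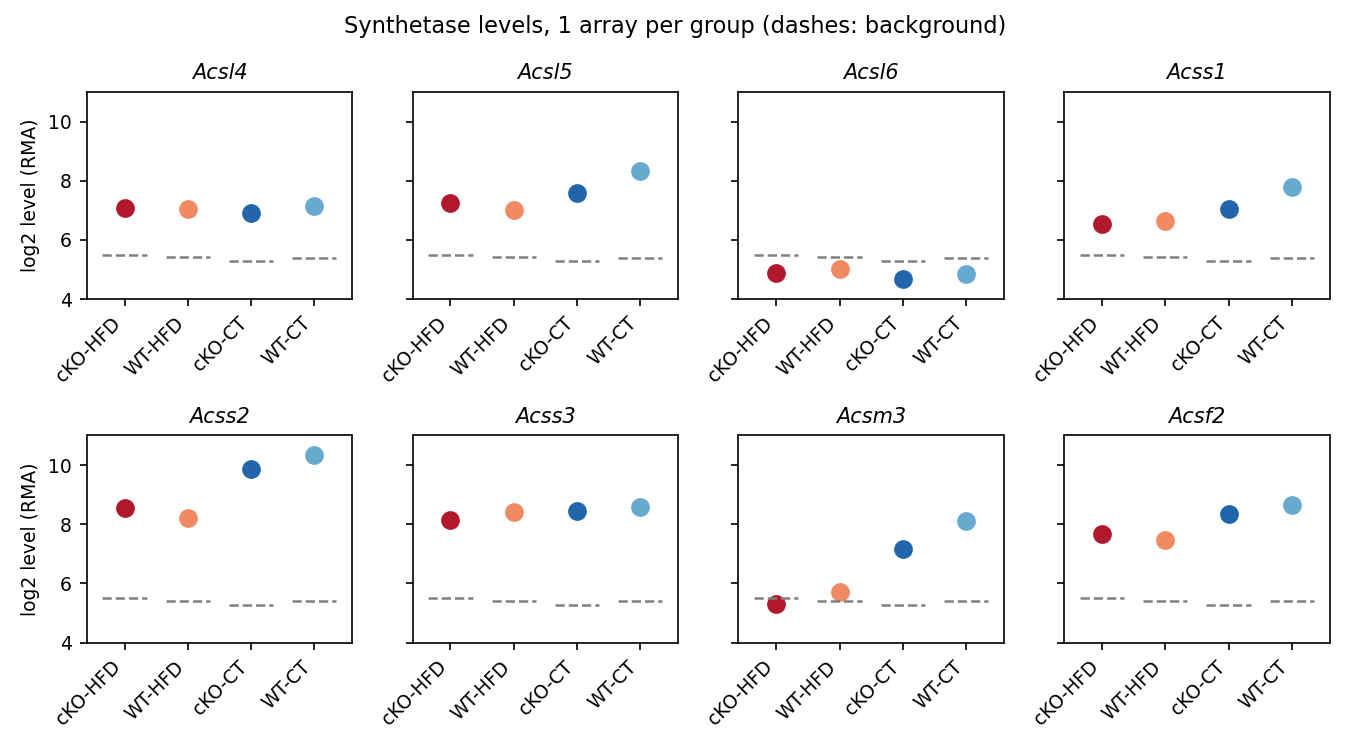
Log2 level (vertical axis) of the 8 measured synthetases on the cKO-HFD, WT-HFD, cKO-CT and WT-CT arrays, 1 point per array, with grey dashes at the background of each array. *Acsm3* stood at 8.11 on WT-CT and below the background on cKO-HFD, while *Acsl4* stayed between 6.90 and 7.14.

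To place the genes that fell, the upstream sequence of 3 of them is shown because these are the members that moved most by diet (*Acsm3* and *Acss2*) and by genotype (*Acsm3* and *Acss1*) and whose start region has bases outside the annotated gene. Sequences are from RefSeq (GRCm38.p6), up to 250 bases before a transcript start, read 5′ to 3′ on the strand of the gene, with bases inside the annotated gene left off. Capitals mark CCAAT or GGGCGG on either strand.
Acsm3 (chr7:119760673-119760882, + strand): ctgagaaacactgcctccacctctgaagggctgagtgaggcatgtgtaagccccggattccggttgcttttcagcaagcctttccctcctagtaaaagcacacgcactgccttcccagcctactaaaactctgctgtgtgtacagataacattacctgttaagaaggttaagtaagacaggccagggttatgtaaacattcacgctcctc
Acss2 (chr2:155517793-155518042, + strand): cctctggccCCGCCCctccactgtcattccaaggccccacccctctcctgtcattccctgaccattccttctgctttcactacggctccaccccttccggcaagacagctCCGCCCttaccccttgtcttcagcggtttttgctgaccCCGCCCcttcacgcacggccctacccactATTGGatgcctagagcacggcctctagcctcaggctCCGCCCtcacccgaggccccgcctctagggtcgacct
Acss1 (chr2:150668241-150668490, - strand): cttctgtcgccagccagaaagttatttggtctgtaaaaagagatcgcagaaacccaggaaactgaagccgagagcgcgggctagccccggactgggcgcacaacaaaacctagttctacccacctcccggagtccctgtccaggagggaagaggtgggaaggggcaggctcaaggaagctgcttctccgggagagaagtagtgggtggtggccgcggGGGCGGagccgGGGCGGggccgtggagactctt

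Of the 10 listed genes, 9 had an entry in the promoter table, and the windows of *Acsl5* and *Acsf2* lay wholly inside their annotated genes and are not shown. The Acss2 stretch held 4 matches to GGGCGG and 1 to CCAAT, and the Acss1 stretch 2 matches to GGGCGG. The 210 bases of *Acsm3* held neither, and its 2 CCAAT matches lay in the 40 bases between the shown stretch and the start. Both strands were searched for TCACNCCAC (sterol element), CACGTG (E-box), a pair of AGGTCA copies 1 base apart, CCAAT and GGGCGG, and these motifs do not overlap in the 3 stretches. In the 250 bases before the start, CCAAT was found for *Acsm3*, *Acss2* and *Acsl5* and in 33.9% of all 32851 promoters, and GGGCGG for *Acss2*, *Acss1* and *Acsf2* and in 32.7% of all. None of the 5 genes that fell in WT mice had TCACNCCAC, CACGTG or the AGGTCA pair there, which 1.05%, 6.02% and 0.033% of all promoters held. The window was 64.0% G and C for *Acss2*, 61.6% for *Acss1* and 49.2% for *Acsm3*, with a median of 52.4% over all promoters. The 3 windows thus had no motif in common, and a match or its absence says nothing of a factor.

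Acetyl-CoA synthetases were the first group by role. *Acss2*, which makes acetyl-CoA from acetate in the cytosol and nucleus and supplies lipid synthesis and histone acetylation, had log2 levels of 8.55 on cKO-HFD, 8.23 on WT-HFD, 9.87 on cKO-CT and 10.34 on WT-CT. Both high-fat arrays were thus low and both control-diet arrays high, with the diets well apart. In cKO mice *Acss2* fell by 1.32 on the log2 scale (2.49-fold lower on cKO-HFD than on cKO-CT), rank 67 from the lowest ratio of all 19938 genes. In WT mice it fell by 2.12 (4.34-fold, rank 20). By genotype it was not called, with a log2 ratio of 0.32 on the high-fat diet and of -0.48 on the control diet.

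*Acss1*, the mitochondrial acetate-activating enzyme, had log2 levels of 6.54 on cKO-HFD, 6.65 on WT-HFD, 7.05 on cKO-CT and 7.80 on WT-CT. Here WT-CT stood apart and the other 3 arrays lay within 0.50 of each other. Its diet log2 ratio of -0.50 in cKO mice (1.42-fold) did not reach 1.5-fold, while in WT mice *Acss1* fell by 1.15 (2.22-fold). Its genotype log2 ratio was -0.11 on the high-fat diet, and on the control diet it fell by 0.76 (1.69-fold). *Acss3*, a mitochondrial enzyme that prefers propionate, had log2 levels of 8.14 on cKO-HFD, 8.40 on WT-HFD, 8.45 on cKO-CT and 8.57 on WT-CT. All 4 of its log2 ratios lay between -0.12 and -0.31, none reaching 1.5-fold.

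Of the long-chain enzymes, only *Acsl5* was called in any comparison, among the 3 that had a probe set of their own. *Acsl5*, which is found on mitochondria and the endoplasmic reticulum, had log2 levels of 7.24 on cKO-HFD, 6.999 on WT-HFD, 7.58 on cKO-CT and 8.33 on WT-CT. Its lowest array was WT-HFD and its highest WT-CT, with both cKO arrays in between. The diet log2 ratio of *Acsl5* was -0.34 in cKO mice (1.27-fold), and in WT mice it fell by 1.33 (2.51-fold, rank 66). The genotype log2 ratio was 0.24 on the high-fat diet, and on the control diet it fell by 0.75 (1.68-fold, rank 105).

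*Acsl4*, which prefers arachidonic acid, had log2 levels of 7.09 on cKO-HFD, 7.04 on WT-HFD, 6.90 on cKO-CT and 7.14 on WT-CT. Its whole range over the arrays was 0.24, against a robust SD of 0.22 for the WT-HFD over WT-CT ratios of genes of like level. *Acsl6*, known from brain, lay below background on all 4 arrays (4.68 to 5.02), so its ratios are not resolved. The probe set that *Acsl3*, a lipid droplet enzyme, shares with *Utp14b* had log2 levels of 5.38 on cKO-HFD, 5.31 on WT-HFD, 5.54 on cKO-CT and 5.42 on WT-CT. These lie close to background, and which of the 2 genes they report cannot be told apart.

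The medium-chain genes held the largest fall. *Acsm3*, a mitochondrial medium-chain enzyme, had log2 levels of 5.32 on cKO-HFD, 5.70 on WT-HFD, 7.15 on cKO-CT and 8.11 on WT-CT. Its levels kept the same order by diet in both genotypes and lay below background on cKO-HFD only. In cKO-HFD it was at least 3.14-fold lower than in cKO-CT when the background of the cKO-HFD array is put in place of its level there, with a measured log2 ratio of -1.83. In WT mice it fell by 2.41 (5.33-fold, rank 14 of all genes). Between the high-fat arrays the same bound put cKO-HFD 1.15-fold below WT-HFD (log2 0.20). That is about the robust SD of 0.20 for cKO-HFD over WT-HFD ratios of genes of like level, so the difference is not resolved. On the control diet *Acsm3* fell by 0.96 in cKO mice (1.95-fold, rank 42).

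*Acsf2*, another mitochondrial medium-chain enzyme, had log2 levels of 7.66 on cKO-HFD, 7.48 on WT-HFD, 8.34 on cKO-CT and 8.65 on WT-CT, as the mean of 2 probe sets. The high-fat arrays were lower than the control-diet arrays in both genotypes. *Acsf2* fell by 0.68 in cKO mice (1.60-fold). In WT mice it fell by 1.18 (2.26-fold). Its 2 probe sets gave diet log2 ratios of -0.67 and -0.70 in cKO mice, and of -1.14 and -1.22 in WT mice. By genotype the log2 ratio was 0.18 on the high-fat diet and -0.32 on the control diet.

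**Figure D2:**
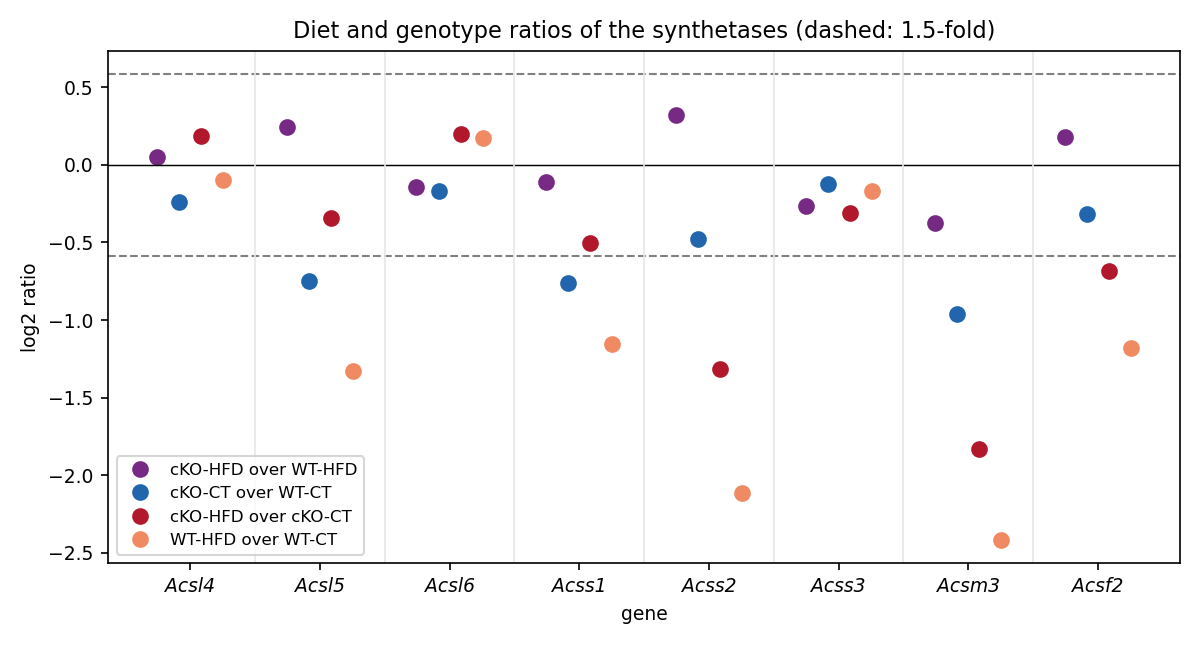
Log2 ratio (vertical axis) of the 8 synthetases by genotype on each diet and by diet in each genotype, 1 point per comparison, with dashed lines at 1.5-fold. No point lies above the upper line, and all measured cKO-HFD over WT-HFD points lie between the lines, those of *Acsm3* and *Acsl6* with levels below background.

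By count, 3 of 8 synthetases (37.5%) were lower with the diet in cKO mice, a comparison in which 2.17% of all genes were lower and 1.82% higher. In WT mice 5 of 8 (62.5%) were lower, where 2.67% of all genes were lower and 3.16% higher. By genotype none was called on the high-fat diet, where 2.11% of all genes were lower and 1.04% higher. On the control diet 3 of 8 were lower, where 1.52% of all genes were lower and 1.64% higher, and centring the arrays on their medians shifts the lower share of the genes called there to 38% in place of 48.1%. The median log2 ratio over the 8 genes was -0.42 with the diet in cKO mice, -1.17 with the diet in WT mice, -0.03 by genotype on the high-fat diet (0.0504 without *Acsl6*) and -0.40 by genotype on the control diet, and the medians over all genes lay between -0.005 and 0.027. The study drew a gene list from the same arrays by this genotype ratio on the control diet, and the list holds *Acsl5*, *Acss1* and *Acsm3*, so their calls there are a description and no independent evidence.

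The diet ratios of WT and cKO mice share no array and can be set side by side. Of the 7 synthetases above background on at least 1 array, 6 had the same sign in both, *Acsl4* being the exception. Without that filter, 7 of 8 synthetases (87.5%) and 52.0% of all genes had the same sign. The ratios correlated with r = 0.92 across the 7 genes, which share the same 4 arrays and are not independent replicates. Unfiltered, r was 0.93 across the 8 synthetases and 0.11 across all genes. The all-gene values include genes below background throughout, and none was computed with the filter. The 3 genes that fell in cKO mice were all among the 5 that fell in WT mice. Over all genes, 117 fell in both, of 432 that fell in cKO mice and 532 that fell in WT mice. The diet ratio was larger in size in cKO mice for *Acsl4* and *Acss3* (-0.31 in cKO and -0.17 in WT for *Acss3*), and in WT mice for the other 5, which are the genes called in WT mice and so were selected for a large ratio there. Over all genes, 9986 of 19938 had the larger ratio in WT mice. No difference between the genotypes was tested. The genotype ratios of the 2 diets share no array either, and there 3 of the 7 genes had the same sign, with r = 0.19. Without the filter, 4 of 8 synthetases (50%) and 47.7% of all genes had the same sign, with r = 0.09 and r = -0.01. The genotype ratio on the control diet and the diet ratio in WT mice do share the WT-CT array, the highest for 7 of the 8 synthetases.

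**Figure D3:**
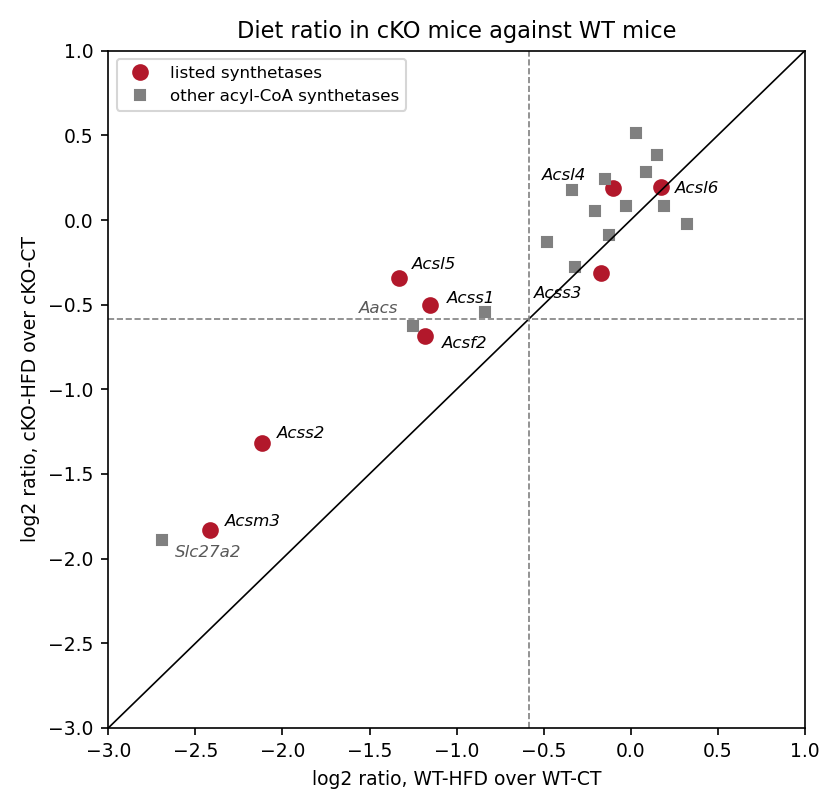
Log2 ratio of cKO-HFD over cKO-CT (vertical axis) against WT-HFD over WT-CT (horizontal axis) for the 8 listed and 15 other acyl-CoA synthetases, 1 point per gene, with dashed lines at 1.5-fold lower and a solid line where both ratios are equal. The 5 synthetases called in WT mice, selected for a large ratio there, lie above the solid line, and *Acsl4* and *Acss3* have the larger ratio in cKO mice. Points that rest on levels below background include the cKO ratio of *Acsm3* and both ratios of *Slc27a2* and *Acsl6*. Of the 15 other synthetases, only 8 lay above background on at least 1 array.

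Of 15 other acyl-CoA synthetase genes, all measured, 8 lay above background on at least 1 array. With the diet 2 fell in cKO mice and 3 in WT mice, by genotype 0 were called on the high-fat diet and 1 fell on the control diet, and none rose. Of all genes, 2.17% fell and 1.82% rose with the diet in cKO mice, and 2.67% and 3.16% in WT mice. By genotype these shares were 2.11% and 1.04% on the high-fat diet, and 1.52% and 1.64% on the control diet. *Slc27a2*, a very long-chain synthetase and fatty acid transport protein, had log2 levels of 5.16 on cKO-HFD, 5.25 on WT-HFD, 7.06 on cKO-CT and 7.94 on WT-CT. It was below background on both high-fat arrays, at least 2.94-fold lower in cKO-HFD than in cKO-CT and at least 5.74-fold lower in WT-HFD than in WT-CT. By genotype on the control diet it fell by 0.89. *Aacs*, which makes acetoacetyl-CoA in the cytosol for lipid synthesis, had diet log2 ratios of -0.62 in cKO mice and -1.25 in WT mice, both past 1.5-fold. *Acsf3*, a mitochondrial malonyl-CoA synthetase, had a diet log2 ratio of -0.55 in cKO mice, short of 1.5-fold, and of -0.83 in WT mice. *Slc27a1*, a fatty acid transport protein of fat and muscle, stayed within 1.5-fold, with log2 levels of 11.36 on cKO-HFD, 11.02 on WT-HFD, 11.19 on cKO-CT and 11.36 on WT-CT.

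Of 17 genes that make, use or carry acyl-CoA, 16 were measured, all above background on every array. With the diet 6 fell in cKO mice (2.17% of all genes fell there), and 11 fell and 1 rose in WT mice (2.67% and 3.16% of all genes). By genotype 2 rose on the high-fat diet (1.04% of all genes), and 4 fell and 1 rose on the control diet (1.52% and 1.64% of all genes). *Acly*, the citrate-splitting source of cytosolic acetyl-CoA besides *Acss2*, had diet log2 ratios of -2.45 in cKO mice and -3.62 in WT mice. For *Acaca*, which turns acetyl-CoA into malonyl-CoA, they were -2.51 in cKO mice and -3.44 in WT mice, and for its mitochondrial counterpart *Acacb* -1.21 in cKO mice and -1.82 in WT mice. *Pdhb*, a subunit of the enzyme that makes mitochondrial acetyl-CoA from pyruvate, had diet log2 ratios of -0.98 in cKO mice and -2.09 in WT mice, and a genotype log2 ratio of -1.14 on the control diet. These 4 genes fell with the diet in both genotypes, but they were named for the size of their ratios. Their falls therefore do not describe the list, of which 6 of 16 fell in cKO mice. *Cpt1a*, which passes long-chain acyl groups to carnitine, was the gene that rose with the diet in WT mice (log2 ratio 0.69) and by genotype on the control diet (0.65). The 2 genes that rose by genotype on the high-fat diet were *Agpat2*, which acylates lysophosphatidic acid (0.77), and *Slc25a1*, the mitochondrial citrate carrier (0.68). The triglyceride-forming *Dgat2* and the acyl-CoA carrier *Dbi* stayed within 1.5-fold throughout.

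Markers of other cell types moved on the same arrays. Of 9 brown and beige adipocyte markers, 5 were lower with the diet in cKO mice (median log2 ratio -1.08), 7 with the diet in WT mice (-1.45) and 6 by genotype on the control diet (-0.74). The shares of all genes lower there were 2.17%, 2.67% and 1.52%. Of these 9 markers, between 7 and 8 lay above background on each array, and their mean log2 level was 7.01 on cKO-HFD, 7.06 on WT-HFD, 8.29 on cKO-CT and 9.03 on WT-CT. *Ucp1*, which uncouples respiration, had log2 levels of 6.74 on cKO-HFD, 7.10 on WT-HFD, 9.96 on cKO-CT and 11.52 on WT-CT. This is the measured order of *Acsm3* and *Acss1*, but for *Acsm3* the 2 high-fat arrays are not resolved. The 9 markers did not all keep this order, as *Prdm16* was higher on cKO-CT (6.98) than on WT-CT (6.62). Over the 11 adipocyte markers the median log2 ratios in these comparisons were -0.05, -0.08 and 0.07. The part of brown and beige cells in the synthetase values was not tested, and fewer cells of a type and less RNA per cell cannot be told apart in whole tissue.

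The 15 skeletal muscle markers had a mean log2 level of 7.42 on cKO-HFD, 10.68 on WT-HFD, 9.08 on cKO-CT and 9.38 on WT-CT. With the diet 11 of them were lower in cKO mice and 11 higher in WT mice, and by genotype 4 were lower on the control diet. All 15 were lower in cKO-HFD than in WT-HFD, with a median log2 ratio of -3.94, in the comparison where no synthetase was called. The 9 measured pancreatic acinar markers had a mean log2 level of 5.39 on cKO-HFD, 5.49 on WT-HFD, 5.30 on cKO-CT and 7.17 on WT-CT. All 9 lay above background on WT-CT and 4 or 5 of them on the other arrays, and WT-CT is also the highest array for 7 synthetases. Of 10 macrophage markers, none was called with the diet in cKO mice and 7 were higher with it in WT mice, and by genotype 3 were lower on the high-fat diet and 4 higher on the control diet. Of 6 measured liver markers, 3 lay above background on every array and 3 on none. With the diet 2 were lower and 1 higher in cKO mice and 1 was lower in WT mice, and by genotype 2 were lower and 1 higher on the high-fat diet and none was called on the control diet. *Alb* (albumin) had log2 levels of 7.73 on cKO-HFD, 8.54 on WT-HFD, 9.77 on cKO-CT and 10.18 on WT-CT. That is the measured order of *Acsm3* and *Acss1*, unresolved for *Acsm3* between the high-fat arrays. *Apoa1*, an apolipoprotein, had 7.71 on cKO-HFD, 6.59 on WT-HFD, 6.81 on cKO-CT and 6.69 on WT-CT, so the liver markers did not move one way. For all these counts, 2.17% of all genes were lower and 1.82% higher with the diet in cKO mice, and 2.67% and 3.16% in WT mice. By genotype 2.11% of all genes were lower and 1.04% higher on the high-fat diet, and 1.52% and 1.64% on the control diet. The part of muscle, acinar, macrophage and liver RNA in the synthetase levels was not tested.

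**Figure D4:**
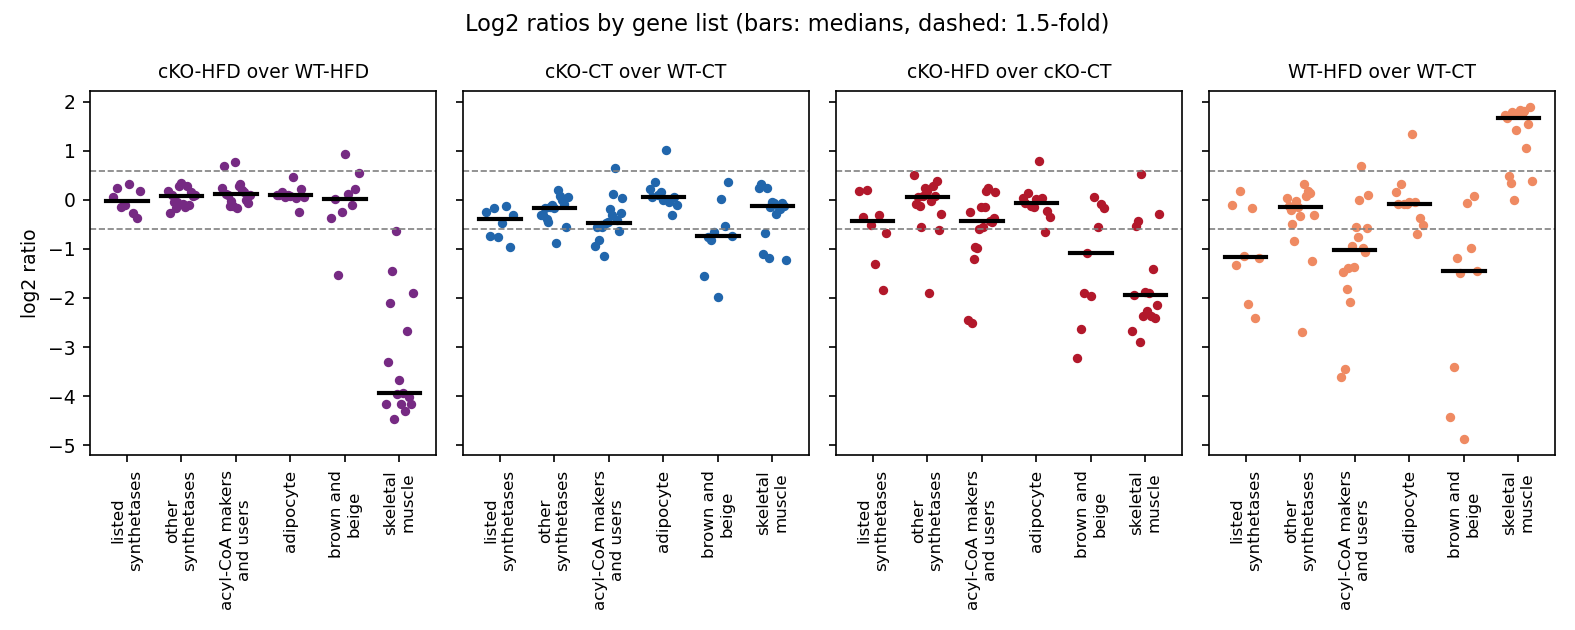
Log2 ratio (vertical axis) of each gene in 6 lists, 1 panel per comparison, with black bars at the list medians and dashed lines at 1.5-fold. The listed synthetases have medians of -0.03, -0.40, -0.42 and -1.17 from left to right, and the skeletal muscle markers -3.94, -0.13, -1.95 and 1.68.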

How the data were processed

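RNA was extracted from SAT, pooled within each group and hybridized to 4 arrays, 1 per group. The deposited log2 values were made by the authors with RMA (background correction, quantile normalization and probe summary), by RMA-Sketch in the APT suite as the paper's methods have it, or in Expression Console as the submitters' processing notes have it. Quantile normalization makes the arrays alike in distribution, so a shift of all genes would not be seen.

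Gene names came from GEO's annotation of the array, some of it possibly out of date. Of 35556 probe sets, 21789 had 1 gene name, 1621 several and 12146 none. Probe sets with 1 name were averaged per gene. With 1 array per group no test was possible, and the number of arrays limits the precision. Genes were called at 1.5-fold. The 10 members, the gene lists and the motifs were chosen with earlier results of these data known. The genes named are the members, *Napepld*, up to 4 of each list by size of ratio among genes above background, those behind a count of 5 or fewer, and 1 or 2 defining markers. *Slc27a1*, *Acsm5*, *Dgat2*, *Dbi*, *Prdm16* and the neighbours of *Acsm3* were named after their values were seen.

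As alternatives, the brightest probe set per gene was tried, and also cyclic loess in limma (span 0.7, 3 iterations), centring on the median of all genes, genes above background only, probe sets with several names, and a 2-fold size. Steps were tested on simulated data. Python 3.11.15, numpy 2.4.6, pandas 2.3.3, matplotlib 3.10.9, R 4.3.3 and limma 3.58.1 were used.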

Additional observations from a re-analysis of the deposited data

Results flagged for a closer look

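For 4 synthetases the sign of the genotype ratio differed between the diets, so that the single cKO-HFD array lay above WT-HFD while the single cKO-CT array lay below WT-CT. None of these differences was tested. The genotype ratios of the 2 diets had the same sign for only 47.7% of all 19938 genes, so a differing sign does not set these synthetases apart. The genotype log2 ratio on the high-fat diet minus that on the control diet was 0.99 for *Acsl5* (0.24 and -0.75), 0.80 for *Acss2* (0.32 and -0.48), 0.50 for *Acsf2* (0.18 and -0.32) and 0.29 for *Acsl4* (0.05 and -0.24). For *Acsl4* the diet ratio differed in sign between genotypes too, 0.19 in cKO mice and -0.10 in WT mice. The difference of 0.29 between these is the same quantity by arithmetic, from the same 4 arrays, and no second observation. Only the *Acsl5* ratio on the control diet reached 1.5-fold.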

How the results depend on the processing

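At a 2-fold size, no synthetase was called in cKO-CT over WT-CT (0, in place of 3), 5 were called in WT-HFD over WT-CT and 2 in cKO-HFD over cKO-CT. The share of all genes past 2-fold was not computed, so these counts have no background beside them. Under cyclic loess, median centring, the brightest probe set, the background filter and the inclusion of shared probe sets, no call of a measured synthetase was gained or lost, and single ratios moved by less than the robust SD of the log2 ratios of genes of like level, which stood in for a replicate spread. The medians kept their sign and stayed within 1.5 times of their value, except in cKO-HFD over WT-HFD, where the median of -0.03 became 0.0504 with the background filter and 0.0504 with shared probe sets. Under cyclic loess *Acss2* in cKO-CT over WT-CT came to -0.57, close to 1.5-fold. Centring on the median of all genes gave 255 lower and 416 higher genes in cKO-CT over WT-CT, against 303 and 327 without it (38% and 48.1% lower among called genes). In cKO-HFD over cKO-CT cyclic loess gave 451 and 251, against 432 and 362 (64.3% and 54.4% lower). *Acsl6* lay below background and left the count under that filter. No paired analysis was possible because each group had 1 array, and for the same reason no replicate could be left out.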

Other observations

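On mouse chromosome 7, *Acsm3* lies downstream in order from *Acsm5*, *Acsm2*, *Acsm1* and *Acsm4*, with *Thumpd1* and *Ppp1ccb* between (RefSeq, GRCm38.p6), and *Eri2* follows it. Of these Acsm genes only *Acsm3* was called. *Acsm5* lay above background on all 4 arrays, with log2 levels of 6.13 on cKO-HFD, 6.17 on WT-HFD, 6.26 on cKO-CT and 6.65 on WT-CT, and log2 ratios of -0.40 in cKO-CT over WT-CT and -0.48 in WT-HFD over WT-CT. *Acsm1*, *Acsm2*, *Acsm4* and *Thumpd1* were below background on all 4 arrays, so their ratios are not resolved. *Eri2* stayed between 5.46 and 5.80, and its log2 ratio in WT-HFD over WT-CT was -0.18, where that of *Acsm3* was -2.41.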
